A study of Mus musculus with 12 samples.

Results

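The expression of 10 genes of the kidney's acid-base machinery was followed in whole kidney tissue, namely Atp6v1b1, Atp6v1g3, Atp6v0a4, Atp6v0d2, Slc4a1, Slc26a4, Slc4a4, Car2, Car4 and Foxi1. They were taken by gene name from the deposited expression table, where each name matched 1 row, so that they made up 10 of its 22053 rows. All 10 passed the filter on low values and were among the 13148 genes tested. Kidneys of 12 mice were sequenced, 4 in each of 3 groups, with 1 library per mouse. According to the methods of the study all mice were C57BL/6, began the diet at 8 weeks of age and were studied at 16 weeks, and the labels name no altered allele. Control mice received a diet without adenine and were injected i.p. every week with PBS. CKD mice (chronic kidney disease) were fed 0.2% adenine for 8 weeks and received the same PBS injections. CKD+Fe mice were fed the same adenine diet and received iron dextran i.p. every week at 0.5 g/kg. Every comparison of CKD+Fe with control mice therefore carries both the diet and the iron, and the iron was not given to mice without CKD. Values are FPKM, the number of fragments mapped to a gene per kilobase of its transcript, relative to all fragments mapped in that mouse.

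Intercalated cells are the acid-base cells of the connecting tubule and collecting duct. Type A cells secrete protons into the urine through a vacuolar H+-ATPase (V-ATPase) in the apical membrane and return bicarbonate to the blood through the basolateral exchanger AE1, whereas type B cells secrete bicarbonate through the apical exchanger pendrin. The V-ATPase is built of a cytosolic V1 sector that hydrolyses ATP and a membrane V0 sector that conducts protons, and several of its subunits exist in a widely expressed form and in a form found in few cell types. In the proximal tubule most filtered bicarbonate is reclaimed with the help of membrane-bound carbonic anhydrase and the basolateral cotransporter NBCe1.

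The total of all FPKM was 607951 to 707843 in control mice, 503438 to 603556 in CKD mice and 536139 to 572074 in CKD+Fe mice, and the depth in reads is unknown. One mouse in each group stood apart from the rest of its group. Control mouse 042301, CKD mouse 110310 and CKD+Fe mouse 042702 had 595, 805 and 442 genes at least 2-fold from the mean of the other 3 mice of their group, against 41 to 225 in the other mice. These mice had the lowest value of their group in 4, 6 and 7 of the 10 genes and the highest in 4, 3 and 1. In control mouse 042301 the summed FPKM of 11 principal cell markers was 2133, against 601 to 746 in the other control mice, and that of 12 proximal tubule markers was 2999, against 4436 to 5085. Results are given with these 3 mice and, where a call among the 10 genes changed, without them. Kidney markers were present in all mice. In bulk tissue, fewer cells of a type and less RNA per cell cannot be told apart.

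Relative to control mice, the 10 genes split in CKD. Car4, Slc26a4 and Slc4a1 fell, Atp6v0d2 and Atp6v1b1 rose (Atp6v1b1 turned to -0.07 on the log2 scale after rescaling, described next), and Atp6v1g3, Atp6v0a4, Slc4a4, Car2 and Foxi1 did not pass the test (limma on log2(FPKM + 1), Benjamini-Hochberg adjusted over 13148 genes, threshold 0.05). The share of all tested genes called was 54.6% higher and 13.3% lower, and the median log2 fold change was 0.50 over all genes and -0.06 over the 10. The CKD and control groups did not overlap for 4 genes: 3 of the 10 were lower in CKD (10.5% of all tested genes) and 1 was higher (44.6%). After the FPKM of each mouse were rescaled by the median of its ratios to a reference, the median over all genes moved from 0.50 to 0.01, and 7 of the 10 genes were called lower and 1 higher (29.3% and 28.8% of all genes). After quantile normalization 5 were lower and 1 higher (25.6% and 23.3%). Fold changes are on the log2(FPKM + 1) scale, which understates changes of genes with low values.

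**Figure D1:**
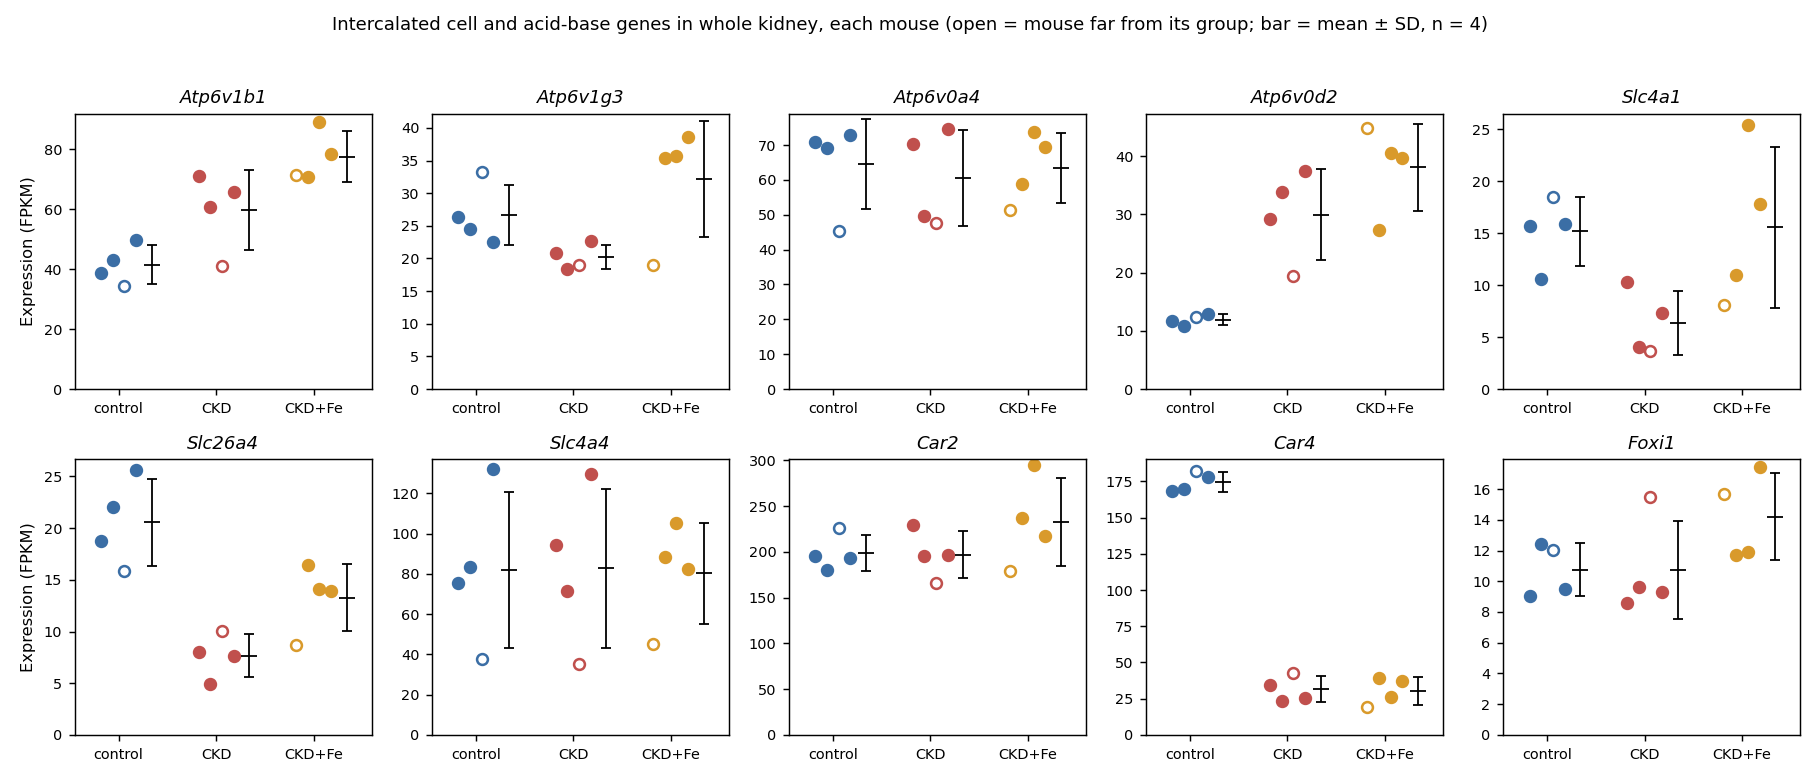
FPKM (linear axis from 0) of each of the 10 genes in each mouse by group, with open circles for the 3 mice that stand apart from their group and bars for the mean ± SD (n = 4). Car4 lies at 169 to 182 in control mice and at 19.1 to 43.0 in all 8 adenine-fed mice, and Atp6v0d2 lies at 10.8 to 12.96 in control mice and at 19.4 to 44.8 in the adenine-fed mice.

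Atp6v1b1 (ENSMUSG00000006269, chromosome 6 from 83742990 to 83758855, plus strand, GRCm38) encodes B1, the form of the ATP-binding V1 subunit B that is characteristic of intercalated cells. Its level in the 4 control mice was 38.7, 43.1, 34.4 and 49.9 FPKM. It was 71.2, 60.9, 41.0 and 65.9 FPKM in CKD mice. It was 71.6, 70.7, 89.2 and 78.5 FPKM in CKD+Fe mice. The lowest CKD mouse, 110310, lay among the control mice, and the CKD+Fe mice all lay above the control mice. The mean was 41.5 ± 6.62 FPKM in control mice, 59.7 ± 13.2 in CKD mice and 77.5 ± 8.53 in CKD+Fe mice (SD, n = 4 each). The log2 fold change in CKD was 0.50 (SE 0.17, limma, Benjamini-Hochberg adjusted p = 0.0202), about the median of all genes. It was -0.07 after rescaling (adjusted p = 0.746, limma). Leaving out control mouse 012811 or 042301 or CKD mouse 021320 or 120102 ended the call (adjusted p = 0.0508, 0.0545, 0.0659 and 0.0567, limma), and leaving out the 3 mice that stood apart gave 0.58 (adjusted p = 0.00165, limma).

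RefSeq promoter entries for GRCm38.p6 were matched for 7 of the 10 genes. Entries for Atp6v0d2, Slc4a1 and Car2 were not among them. FOXI1 belongs to the forkhead factors, whose core motif TGTTTAC was searched on both strands of the 250 bases before each RefSeq start, together with TGTTTA, which lies within it. The motif TGTTTAC was found in 1040 of 32851 promoter entries (3.17%) and TGTTTA in 3952 (12.03%). Among the 8 entries of the 7 genes, which include 2 for Slc4a4, 1 held either motif. That entry belonged to Atp6v1b1, with TGTTTAC starting 98 bases before the RefSeq start on the plus strand. The match is a description of the letters and not a binding site. The sequences upstream of Atp6v1b1 (chr6:83742767-83742989, plus strand), of Slc26a4 (chr12:31559985-31560234, minus strand) and of Car4 (chr11:84957504-84957753, plus strand) are shown, and capitals mark the motif. These genes were chosen by their calls in CKD before rescaling, higher for Atp6v1b1 and lower for Slc26a4 and Car4. After rescaling Atp6v1b1 was not called. Its entry of 250 bases ends at 83743016, and the 98 bases are counted back from there. Only the 223 bases before the gene start are shown.
Atp6v1b1: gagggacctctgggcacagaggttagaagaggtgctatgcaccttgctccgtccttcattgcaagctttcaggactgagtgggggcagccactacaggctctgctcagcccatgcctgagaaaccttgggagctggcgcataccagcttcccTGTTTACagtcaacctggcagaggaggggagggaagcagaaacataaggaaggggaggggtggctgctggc
Slc26a4: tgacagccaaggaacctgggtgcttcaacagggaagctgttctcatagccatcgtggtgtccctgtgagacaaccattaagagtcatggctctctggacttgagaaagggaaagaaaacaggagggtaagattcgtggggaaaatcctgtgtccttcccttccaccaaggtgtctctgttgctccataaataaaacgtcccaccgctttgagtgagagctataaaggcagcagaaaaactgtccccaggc
Car4: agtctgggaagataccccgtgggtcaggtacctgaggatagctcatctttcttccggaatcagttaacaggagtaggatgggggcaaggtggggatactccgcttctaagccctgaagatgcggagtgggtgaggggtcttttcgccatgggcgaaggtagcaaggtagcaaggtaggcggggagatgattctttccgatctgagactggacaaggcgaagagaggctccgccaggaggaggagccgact

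Atp6v1g3 (ENSMUSG00000026394, chromosome 1 from 138273738 to 138289462, plus strand) encodes G3, a V1 stalk subunit with expression largely limited to the kidney. Control mice had 26.3, 24.5, 33.3 and 22.6 FPKM. CKD mice had 20.8, 18.4, 19.0 and 22.6 FPKM, and CKD+Fe mice had 19.1, 35.3, 35.7 and 38.7 FPKM. The control and CKD groups met at 22.6 FPKM, and 3 of the 4 CKD+Fe mice lay above all other mice while mouse 042702 lay within the CKD range. The mean was 26.7 ± 4.64, 20.2 ± 1.89 and 32.2 ± 8.88 FPKM in control, CKD and CKD+Fe mice (SD, n = 4). In CKD the log2 fold change was -0.37, with a 95% interval from -0.80 to 0.05 (adjusted p = 0.109, limma). After rescaling it was -0.93 and passed the threshold (adjusted p = 0.00185, limma). It also passed after quantile normalization, with -0.68 (adjusted p = 0.0208, limma), and when the CKD+Fe mice were left out of the fit (adjusted p = 0.0463, limma).

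Atp6v0a4 (ENSMUSG00000038600, chromosome 6 from 38048483 to 38124586, minus strand) encodes a4, the V0 subunit a of intercalated cells and of the proximal tubule. Its FPKM were 70.9, 69.1, 45.3 and 72.8 in control mice. They were 70.3, 49.7, 47.6 and 74.6 in CKD mice, and 51.4, 58.9, 73.7 and 69.3 in CKD+Fe mice. The groups overlapped throughout, and the mouse that stood apart was the lowest in each. The mean was 64.5 ± 12.9, 60.5 ± 13.9 and 63.3 ± 10.1 FPKM (SD, n = 4), and the CKD difference of -0.09 had a 95% interval from -0.51 to 0.32 (adjusted p = 0.678, limma). After rescaling it was -0.66 (adjusted p = 0.0128, limma). Part of an exon of Tmem213 lies on the opposite strand of an Atp6v0a4 exon, and 2 exons of D630045J12Rik overlap Atp6v0a4 exons on the same strand. The libraries were stranded but the strand setting used for the FPKM is not given, so reads of these genes may be shared. Tmem213 was at 199.99 FPKM in control mouse 042301, against 113 to 115 in the other control mice. It was at 176 in CKD mouse 110310, against 105 to 117 in the other CKD mice. In CKD+Fe mouse 042702 it was lower, at 138, against 145 to 150 in the other CKD+Fe mice. The part of Tmem213 in the Atp6v0a4 values was not tested.

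Atp6v0d2 (ENSMUSG00000028238, chromosome 4 from 19876841 to 19922605, minus strand) encodes d2, a V0 subunit of intercalated cells that is also known from osteoclasts and macrophages. Control mice had 11.6, 10.8, 12.3 and 12.96 FPKM. CKD mice had 29.2, 33.8, 19.4 and 37.5 FPKM. CKD+Fe mice had 44.8, 27.4, 40.5 and 39.7 FPKM. All 8 adenine-fed mice were above all 4 control mice, with the smallest rise in CKD mouse 110310. The mean rose from 11.9 ± 0.923 FPKM in control mice to 29.96 ± 7.83 in CKD mice (SD, n = 4), a 2.51-fold difference of means. The log2 fold change was 1.22 (SE 0.19, adjusted p = 0.000109, limma), it remained 0.68 after rescaling (adjusted p = 0.00458, limma), and it passed the threshold in each of the 8 fits that left out 1 mouse. Of 14 tested macrophage and osteoclast markers 13 rose in CKD and 0 fell (54.6% and 13.3% of all genes). After rescaling 13 rose and 1 fell (28.8% and 29.3%). The summed FPKM of these markers ran from 182 to 331 in control mice, from 1941 to 3985 in CKD mice and from 1811 to 4183 with iron. Within the CKD mice the sums were not in the order of Atp6v0d2. CKD mouse 110310, the lowest of its group for Atp6v0d2, had a sum of 3041, and mouse 120102, the highest, had 2000. Mouse 022301, with 33.8 FPKM of Atp6v0d2, had the highest sum, 3985. Within the CKD+Fe mice the sums were in the order of Atp6v0d2. They were 4183 in mouse 042702, 2988 in 111710, 2484 in 122320 and 1811 in 062910. Among osteoclast markers, Acp5 had a log2 fold change of -0.30 (adjusted p = 0.222, and 0.0484 at -0.40 without the 3 mice that stood apart, limma). Ctsk had 3.33 and Mmp9 2.21 (adjusted p = 6.23e-08 and 1.16e-05, limma). Dcstamp, chosen after its values were seen, rose from a mean of 0.0422 to 1.62 FPKM (log2 fold change 1.33, adjusted p = 9.32e-06, limma). Ocstamp, which was not tested, averaged 0.0202 FPKM in control mice, 0.137 in CKD mice and 0.158 with iron. The part of macrophages in the Atp6v0d2 values was not tested.

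Slc4a1 (ENSMUSG00000006574, chromosome 11 from 102348824 to 102366203, minus strand) encodes AE1, the chloride/bicarbonate exchanger of type A cells and of red cells. Its level was 15.7, 10.6, 18.5 and 15.9 FPKM in control mice. It was 10.3, 4.09, 3.66 and 7.28 FPKM in CKD mice. It was 8.08, 10.9, 25.4 and 17.8 FPKM in CKD+Fe mice. The CKD mice all lay below the control mice, by a narrow margin between CKD mouse 021320 and control mouse 012822, and CKD+Fe mice spread across both ranges. The mean was 15.2 ± 3.31, 6.33 ± 3.08 and 15.6 ± 7.74 FPKM (SD, n = 4). In CKD Slc4a1 fell by 1.21 on the log2 scale (SE 0.34, adjusted p = 0.00579, limma) and passed the threshold in all 8 fits that left out 1 mouse. Of 6 tested erythroid markers 1 rose and 0 fell in CKD (54.6% and 13.3% of all genes). The marker that rose was Epb42 (log2 fold change 0.86, adjusted p = 0.00379, limma). Their summed FPKM with the untested ones ran from 14.3 to 104 in control mice, from 8.25 to 116 in CKD mice and from 8.14 to 47.1 with iron. The globin gene Hbb-bs ran from 7.33 to 52.9 FPKM in control mice, from 3.62 to 73.9 in CKD mice and from 3.01 to 26.2 with iron. Among the untested ones, the erythroid membrane gene Rhag and the red cell carbonic anhydrase gene Car1 were listed at 0 in all mice. The others listed were above 0 in some or all mice. Of these, Alas2, Klf1 and Ermap were chosen after their values were seen. Alas2 averaged 0.862 FPKM in control and 0.616 in CKD mice, Klf1 0.803 and 0.415, and Ermap 0.0272 and 0.186. The CKD mice with the highest erythroid sums, 022301 with 111 and 110310 with 116, had the lowest Slc4a1. The CKD+Fe mouse with the highest sum, 042702 with 47.1, also had the lowest Slc4a1 of its group. In control mice it was the other way, as mouse 042301 had the highest sum, 104, and the highest Slc4a1. The part of red cells in the Slc4a1 values was not tested.

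Slc26a4 (ENSMUSG00000020651, chromosome 12 from 31519827 to 31559969, minus strand) encodes pendrin, the chloride/bicarbonate exchanger of type B and non-A, non-B cells. Control mice had 18.8, 22.0, 15.8 and 25.6 FPKM. CKD mice had 8.003, 4.93, 10.1 and 7.65 FPKM. CKD+Fe mice had 8.69, 16.4, 14.1 and 13.9 FPKM. The CKD range ended below the control range, and 3 of 4 CKD+Fe mice lay above all CKD mice, with mouse 042702 inside the CKD range. The mean was 20.6 ± 4.22, 7.66 ± 2.11 and 13.3 ± 3.27 FPKM (SD, n = 4). In CKD Slc26a4 fell by 1.33 on the log2 scale (SE 0.22, adjusted p = 0.000155, limma), and the difference was -1.86 after rescaling.

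Slc4a4 (ENSMUSG00000060961, chromosome 5 from 88886818 to 89239653, plus strand) encodes NBCe1, which carries bicarbonate with sodium across the basolateral membrane of the proximal tubule. Its values were 75.2, 83.3, 37.5 and 132 FPKM in control mice. They were 94.5, 71.7, 35.0 and 129 FPKM in CKD mice, and 45.3, 88.2, 105 and 82.3 FPKM in CKD+Fe mice. The spread within each group was wider than any difference between groups, and the lowest value of each group came from the mouse that stood apart. The CKD difference was -0.003 on the log2 scale, and its 95% interval from -0.88 to 0.88 leaves room for changes of that size in either direction (adjusted p = 0.995, limma). Of the 12 proximal tubule markers 11 fell in CKD and 0 rose (13.3% and 54.6% of all genes), with a median log2 fold change of -1.96.

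Car2 and Car4 encode carbonic anhydrases, which interconvert carbon dioxide and bicarbonate. Car4 (ENSMUSG00000000805, chromosome 11 from 84957786 to 84966044, plus strand) encodes the membrane-anchored form of the proximal tubule brush border and other epithelia. It was at 169, 170, 182 and 178 FPKM in control mice. It was at 34.4, 23.2, 43.0 and 25.4 FPKM in CKD mice. It was at 19.1, 39.3, 26.3 and 37.2 FPKM in CKD+Fe mice. All adenine-fed mice lay far below all control mice. Car4 had the largest change of the 10 genes, from 175 ± 6.59 to 31.5 ± 9.10 FPKM (SD, n = 4), and fell by 2.47 on the log2 scale (SE 0.22, adjusted p = 1.21e-06, limma). The proximal tubule marker sum was 2999 to 5085 FPKM in control mice and 644 to 1257 FPKM in CKD mice, and its part in the Car4 values was not tested. Car2 (ENSMUSG00000027562, chromosome 3 from 14886273 to 14900770, plus strand) encodes the abundant cytosolic enzyme of intercalated and other tubule cells and had the highest control mean of the 10 genes. Its FPKM were 196, 180, 226 and 193 in control mice, 229, 195, 166 and 196 in CKD mice, and 180, 237, 295 and 217 in CKD+Fe mice. The control and CKD groups overlapped, with means of 199 ± 19.4 and 197 ± 25.6 FPKM (SD, n = 4) and a log2 difference of -0.02 with a 95% interval from -0.36 to 0.32 (adjusted p = 0.924, limma). The direction of Car2 depended on the scaling, with -0.59 after rescaling (adjusted p = 0.00706, limma) and 0.36 after quantile normalization (adjusted p = 0.0959, limma).

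Foxi1 (ENSMUSG00000047861, chromosome 11 from 34204338 to 34208089, minus strand) encodes the forkhead factor that intercalated cells require. Control mice had 9.05, 12.5, 12.05 and 9.51 FPKM. CKD mice had 8.58, 9.63, 15.5 and 9.31 FPKM, and CKD+Fe mice had 15.7, 11.7, 11.9 and 17.4 FPKM. The groups overlapped, and CKD mouse 110310 was the only CKD mouse above the control range. The mean was 10.8 ± 1.73, 10.75 ± 3.19 and 14.2 ± 2.83 FPKM (SD, n = 4). The CKD difference was -0.02 with a 95% interval from -0.44 to 0.39 (adjusted p = 0.914, limma), and -0.55 after rescaling (adjusted p = 0.0245, limma).

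**Figure D2:**
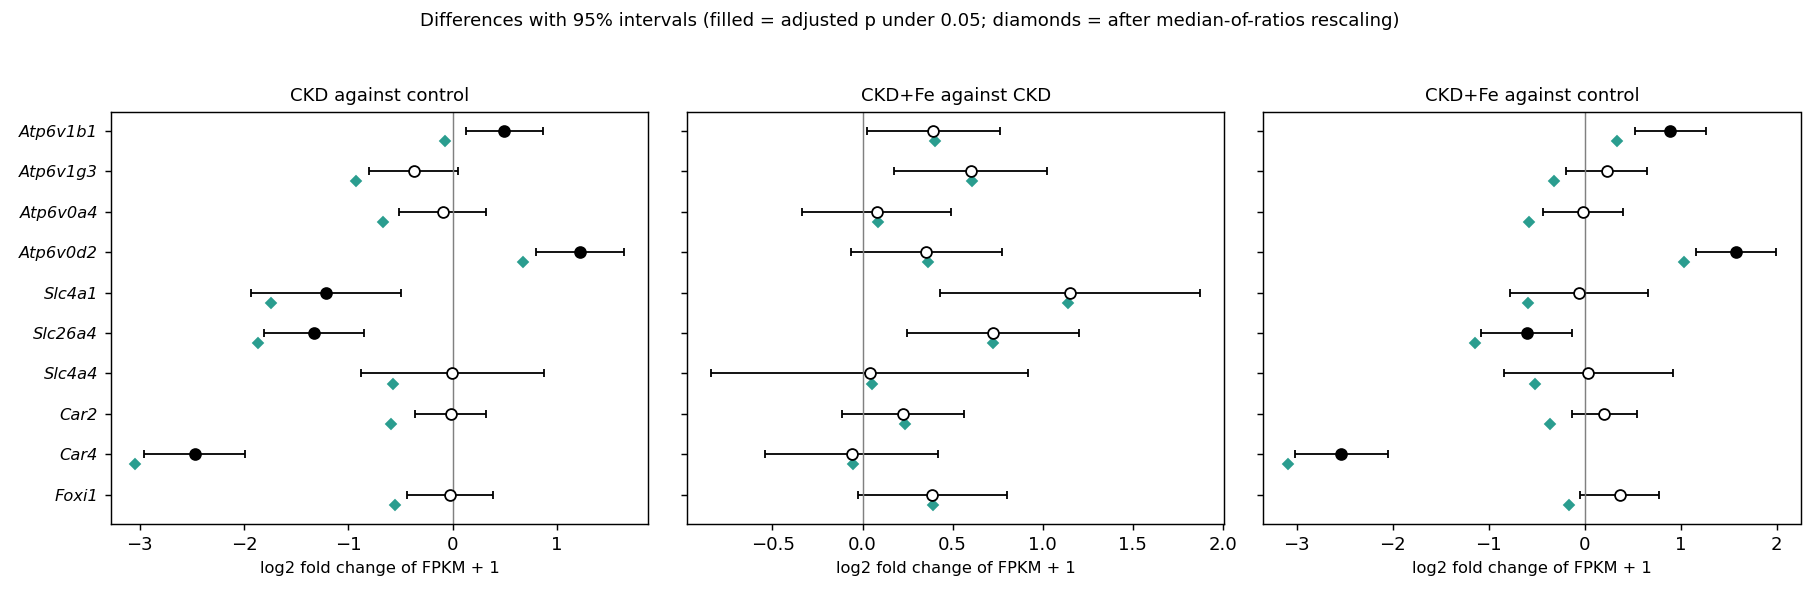
Log2 fold changes of FPKM + 1 for the 10 genes in each of the 3 comparisons, with 95% intervals from the fit over 12 mice (filled circles have an adjusted p under 0.05) and diamonds for the values after median-of-ratios rescaling. In CKD+Fe against CKD the diamonds lie at nearly the values of the circles, whereas against control mice they lie to the left of them, as for Atp6v1b1 with 0.50 and -0.07.

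Whether iron altered these genes in CKD was asked by comparing CKD+Fe with CKD mice. None of the 10 genes passed the adjusted threshold, with 0 higher and 0 lower, and the smallest adjusted p was 0.462 (limma, Benjamini-Hochberg). Of all tested genes 0.00761% were called. At an unadjusted p under 0.05, 4 of the 10 genes were higher in CKD+Fe mice and 0 lower, against 3.28% of all genes higher. These were Slc4a1, Slc26a4, Atp6v1g3 and Atp6v1b1. The log2 difference was above 0 for 9 of the 10 genes (49.9% of all genes), with a median of 0.37 over the 10 and -0.0005 over all genes. Lists of other cells and of the widely expressed subunits also lay above 0 in most members. This held for 12 of 12 proximal tubule markers (median 0.41), 11 of 11 principal cell markers (0.25), 14 of 17 widely expressed V-ATPase subunits (0.12) and 9 of 10 endothelial markers (0.13). It held for 6 of 14 macrophage and osteoclast markers (-0.02), 4 of 8 markers of the distal convoluted tubule and thick ascending limb (0.09) and 0 of 6 erythroid markers (-0.81). The groups overlapped for each of the 10 genes.

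Slc4a1 had the largest difference, 1.15 on the log2 scale with a 95% interval from 0.43 to 1.87 (unadjusted p = 0.00419, adjusted p = 0.462, limma). For Slc26a4 it was 0.72, from 0.25 to 1.20 (unadjusted p = 0.00572, adjusted p = 0.479, limma). For Atp6v1g3 it was 0.60, from 0.18 to 1.03 (unadjusted p = 0.00909, adjusted p = 0.571, limma). In CKD these 3 genes had log2 fold changes below 0, which passed the threshold for Slc4a1 and Slc26a4 but not for Atp6v1g3. The same CKD mice enter both comparisons, so the opposite directions are not independent of each other. For Atp6v1b1, which rose in CKD, the difference with iron was 0.39, from 0.02 to 0.76 (unadjusted p = 0.0390, adjusted p = 0.802, limma). Foxi1 had 0.39, from -0.02 to 0.80 (adjusted p = 0.848, limma), and Atp6v0d2 had 0.35, from -0.07 to 0.77 (adjusted p = 0.894, limma). Car4 had -0.06, from -0.54 to 0.42 (adjusted p = 0.995, limma). The interval of Car2 ran from -0.12 to 0.56, that of Atp6v0a4 from -0.34 to 0.49 and that of Slc4a4 from -0.84 to 0.92.

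The comparison with iron was sensitive to the mice that stood apart. Without these 3 mice, which left 3 mice in each group, Atp6v1g3 (0.80, adjusted p = 0.0291, limma) and Slc26a4 (1.03, adjusted p = 0.0388, limma) passed the threshold, against 0.388% of all genes called higher. With limma's array quality weights, which lower the weight of mice that vary more, the same 2 genes passed (adjusted p = 0.0316 and 0.0292, limma), against 0.692% of all genes. At the adjusted cutoff of 0.5 given in the sequencing methods of the study, Slc4a1 and Slc26a4 passed, against 0.7% of all genes. Leaving out any single mouse gave 0 calls among the 10 genes. Rescaling moved these differences by little, for example from 0.60 to 0.61 for Atp6v1g3.

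CKD+Fe mice were also set against control mice, which share no animal with them but are the same controls as above. Atp6v1b1 and Atp6v0d2 were higher and Slc26a4 and Car4 lower among the 10 genes, against 54.4% and 11.0% of all genes. The CKD+Fe mice lay wholly above the control mice for Atp6v1b1 and Atp6v0d2 (50.4% of all genes) and below for Car4 (9.85%). Atp6v0d2 had a log2 fold change of 1.58 (adjusted p = 1.97e-05, limma) and Atp6v1b1 of 0.89 (adjusted p = 0.000564, limma). After rescaling Atp6v0d2 had 1.04 (adjusted p = 0.000262, limma), Atp6v1b1 had 0.33 and no longer passed (adjusted p = 0.110, limma), and Atp6v0a4 passed as lower with -0.58 (adjusted p = 0.0277, limma), which gave 1 higher and 3 lower among the 10 (27.7% and 27.5% of all genes). Car4 was lower, with -2.54 on the log2 scale (adjusted p = 1.48e-06, limma). Slc26a4 was lower, with -0.61 (adjusted p = 0.0272, limma), a call that ended without control mouse 012822 or 042310 or CKD+Fe mouse 042702 (adjusted p = 0.0652, 0.0815 and 0.0912, limma). Slc4a1 differed from control mice by -0.06, with a 95% interval from -0.78 to 0.66 (adjusted p = 0.883, limma). Atp6v1g3 differed by 0.23 (adjusted p = 0.324, limma), and without CKD+Fe mouse 042702 it passed as higher with 0.45 (adjusted p = 0.0148, limma). Without the 3 mice that stood apart Atp6v1g3 had 0.56 (adjusted p = 0.000957, limma), and Car2 passed as well, with 0.38 in place of 0.21 (adjusted p = 0.0217 in place of 0.265, limma). The number of the 10 genes called higher was 4 without the 3 mice that stood apart (57.8% of all genes), 5 with array quality weights (62.9%) and 5 at the adjusted cutoff of 0.5 (70.2%).

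The restricted subunits were then set against their widely expressed paralogs within each mouse, since a ratio within a mouse does not change when all values of that mouse are rescaled. The 7 ratios were compared in 3 ways, and the exact two-sided permutation test over 70 arrangements of 4 against 4 mice cannot give a p below 0.0286. Of the 21 comparisons 7 were at this smallest p, which gave 0.0857 after Benjamini-Hochberg adjustment over the 21, so that none passed 0.05 after adjustment. The log2 ratio of Atp6v1b1 to Atp6v1b2 (B1 over B2) averaged -1.94 in control mice, -1.06 in CKD mice and -0.73 with iron. The CKD mice lay above the control mice without overlap, with a 1.84-fold higher ratio (exact permutation p = 0.0286), and Atp6v1b2 itself fell by 0.37 on the log2 scale (adjusted p = 0.0376, limma). For Atp6v0d2 over Atp6v0d1 (d2 over d1) the log2 ratio averaged -3.22, -1.57 and -1.18. It was 3.15-fold higher in CKD than in control mice without overlap (exact permutation p = 0.0286), although CKD mouse 110310, at -2.63, stood closest to the control mice.

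The other V-ATPase pairs moved less. The log2 ratio of Atp6v0a4 to Atp6v0a1 averaged 1.72, 1.15 and 1.27, with overlapping groups in CKD (difference -0.57, exact permutation p = 0.0857). That of Atp6v1g3 to Atp6v1g1 averaged -2.51 and -2.44 in control and CKD mice, which overlapped (exact permutation p = 0.571), and -2.07 in CKD+Fe mice (exact permutation p = 0.229 against CKD). The CKD and control mice were thus separated for the B1 and d2 ratios and overlapped for the a4 and G3 ratios. Of all tested single genes, 44.6% lay wholly higher and 10.5% wholly lower in CKD, and no such share was computed for ratios. The genes of a pair can be expressed in different cells of whole kidney, so a ratio does not show a switch within a cell. The part of cell composition in the ratios was not tested.

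The exchangers and carbonic anhydrases were compared in the same way. The log2 ratio of Slc4a1 to Slc4a2, which encodes the widely expressed exchanger AE2, averaged -0.07 in control mice and -2.49 in CKD mice, without overlap (0.188-fold, exact permutation p = 0.0286). It averaged -1.28 in CKD+Fe mice, which overlapped the CKD mice (exact permutation p = 0.114). In CKD Slc4a2 rose by 1.01 on the log2 scale (adjusted p = 1.16e-05, limma). For Slc26a4 over Slc4a1, the type B exchanger over the type A exchanger, the log2 ratio averaged 0.44, 0.36 and -0.13, and all groups overlapped (exact permutation p = 0.857 for CKD against control and 0.429 for CKD+Fe against CKD). Car4 to Car2 averaged -0.18 in control mice, -2.68 in CKD mice and -2.97 with iron, a 0.177-fold ratio in CKD without overlap (exact permutation p = 0.0286).

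**Figure D3:**
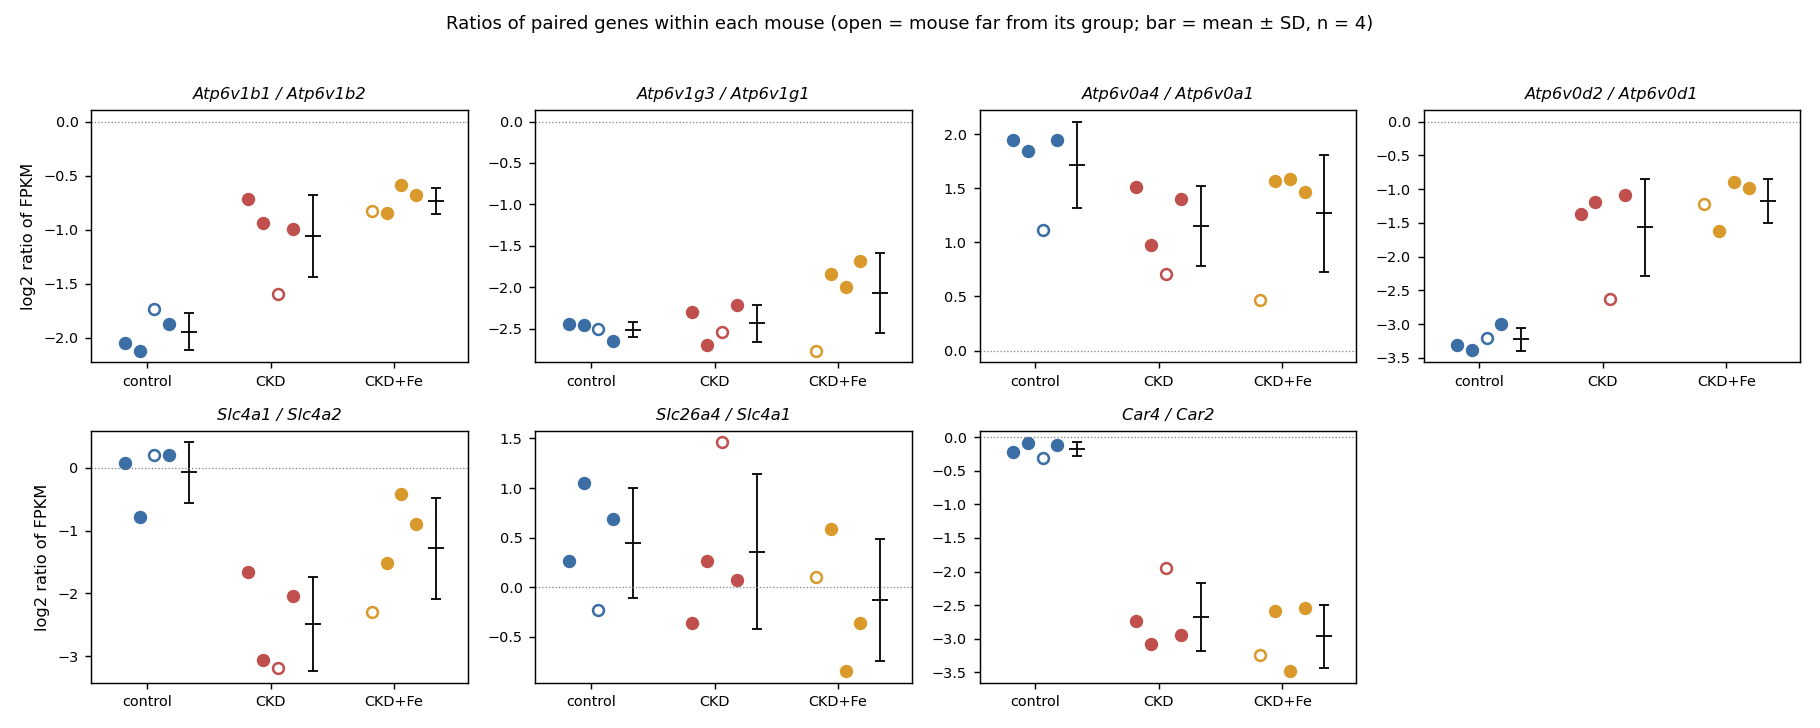
Log2 ratios of FPKM of paired genes within each mouse by group, with open circles for the 3 mice that stand apart and bars for the mean ± SD (n = 4). The B1/B2 and d2/d1 ratios are higher, and the Slc4a1/Slc4a2 and Car4/Car2 ratios lower, in all CKD mice than in all control mice, while the Slc26a4/Slc4a1 ratio overlaps among the 3 groups.

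The 17 widely expressed V-ATPase subunits gave 6 lower and 2 higher in CKD (13.3% and 54.6% of all genes), with a median log2 fold change of -0.23. After rescaling 14 were lower and 1 higher (29.3% and 28.8%). Tcirg1, which encodes the a3 subunit of osteoclasts and macrophages, rose by 2.11 (adjusted p = 2.20e-05, limma). The macrophage sums given above were also higher in CKD, and the part of macrophages in the Tcirg1 values was not tested. The V1 stalk subunit genes Atp6v1e1 and Atp6v1g1 fell by 0.51 and 0.46 on the log2 scale (adjusted p = 0.00144 and 0.00561, limma). Atp6v0b, Atp6v1c1 and Atp6v0a2 had differences of -0.02, -0.003 and 0.003. None of the 17 passed the threshold in CKD+Fe against CKD, where 0 also had an unadjusted p under 0.05 (limma).

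Another 18 genes of intercalated cells were examined, and they too split in CKD. Of these 9 were higher and 5 lower (54.6% and 13.3% of all genes), at a median log2 fold change of 0.46, near that of all genes. After rescaling 3 were higher and 8 lower (28.8% and 29.3%). Jag1, a Notch ligand, rose from 4.17 ± 0.563 to 14.9 ± 3.11 FPKM (log2 fold change 1.61, adjusted p = 1.90e-06, limma), and Tfcp2l1, a transcription factor of the collecting duct, rose from 26.7 ± 5.498 to 75.9 ± 26.7 FPKM (1.42, adjusted p = 0.000253, limma). Both stayed higher after rescaling. Atp6v1c2, which encodes the restricted V1 subunit C2, fell from 21.1 ± 1.84 to 8.64 ± 1.65 FPKM (log2 fold change -1.21, adjusted p = 2.62e-05, limma). Differences that did not pass were -0.52 for Oxgr1, a receptor of type B cells, -0.30 for Bsnd, a chloride channel subunit, and -0.23 for the water channel gene Aqp6 (adjusted p = 0.123, 0.235 and 0.379, limma). The ammonia transporter genes Rhcg and Rhbg, chosen after their values were seen, fell by 0.71 and 0.70 (adjusted p = 0.00406 and 0.00460, limma).

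In CKD+Fe against CKD none of these 18 genes passed the adjusted threshold, and the smallest adjusted p was 0.140 for Atp6v1c2 (limma). At an unadjusted p under 0.05 there were 10 of 18 (6.01% of all genes in either direction), 15 of 18 differences were above 0, and the median was 0.51. For 6 of the 18 genes the CKD+Fe mice lay wholly above the CKD mice (1.35% of all genes), among them Atp6v1c2 and Aqp6. Atp6v1c2 was at 7.63, 7.28, 10.9 and 8.71 FPKM in CKD mice and at 13.2, 17.4, 17.2 and 22.0 FPKM in CKD+Fe mice, a log2 difference of 0.93 with a 95% interval from 0.59 to 1.28. The lowest CKD+Fe mouse was 042702, and still exceeded the highest CKD mouse. Without the 3 mice that stood apart, 3 of the 18 genes were called higher and 0 lower (limma), against 0.388% of all genes called higher. Against control mice, 10 of the 18 were higher in CKD+Fe mice and 0 lower (54.4% and 11.0% of all genes), and after rescaling 8 were higher and 4 lower (27.7% and 27.5%).

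**Figure D4:**
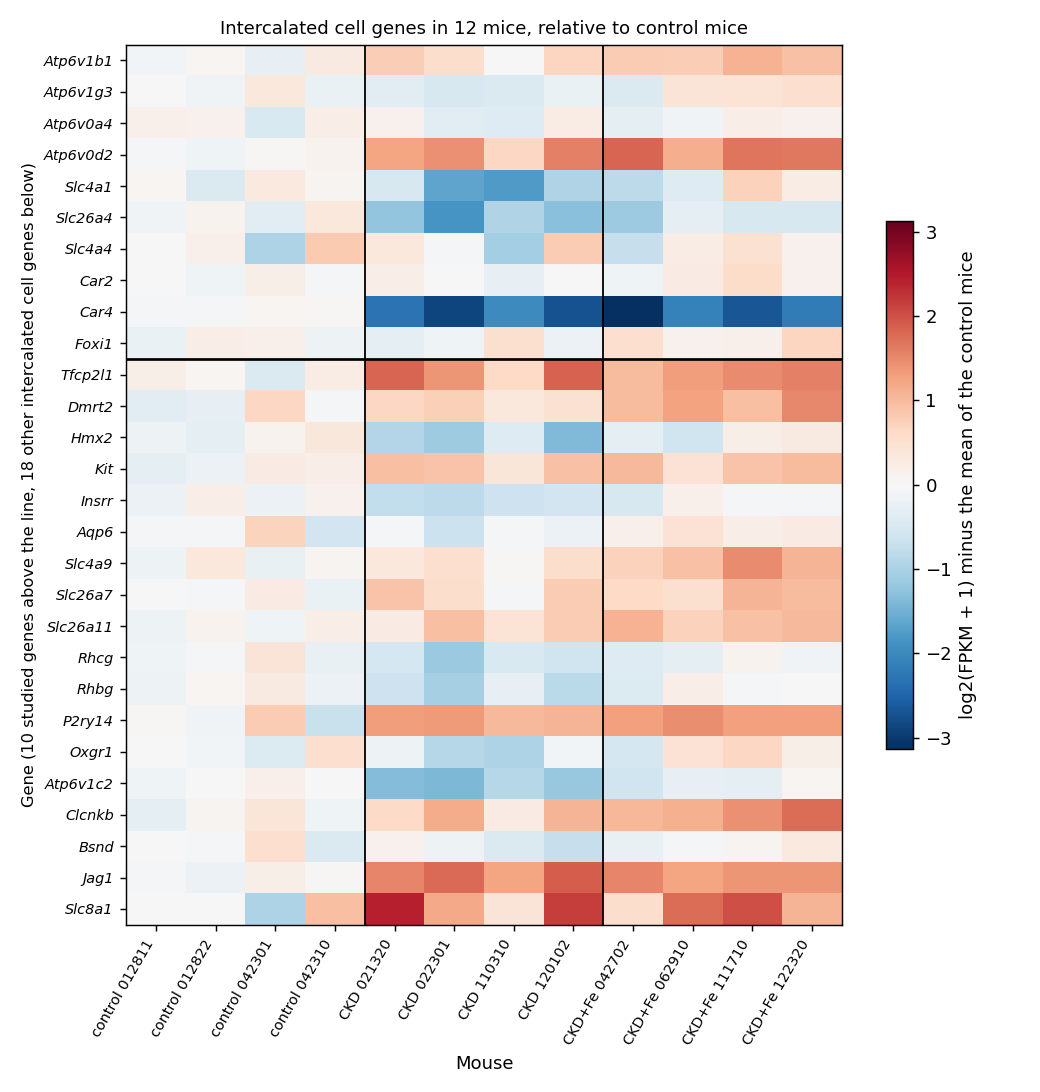
Heat map of log2(FPKM + 1) minus the mean of the control mice, for the 10 genes (above the line) and the 18 other intercalated cell genes (below it) as rows and the 12 mice as columns, with vertical lines between the groups. Car4 is the darkest blue row in all 8 adenine-fed mice, and Jag1, Tfcp2l1 and Atp6v0d2 are red in all 8, while Atp6v1c2 is blue in the 4 CKD mice and paler in the CKD+Fe mice.

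Of 10 tested other carbonic anhydrase genes (14 listed), 2 rose and 3 fell in CKD (54.6% and 13.3% of all genes). After rescaling 2 rose and 5 fell (28.8% and 29.3%). Car13 and Car11 rose by 1.98 and 1.14 on the log2 scale (adjusted p = 2.55e-07 and 3.80e-05, limma). Car14, another membrane-bound enzyme of the proximal tubule, fell by 1.70 (adjusted p = 0.000241, limma), and Car4 had fallen as well. Car5b, Car8 and Car7 had differences of 0.05, 0.04 and 0.02. Of 16 tested other genes of bicarbonate, proton and ammonia handling (19 listed), 9 rose and 2 fell, beside the same shares of all genes. After rescaling 4 rose and 4 fell (28.8% and 29.3%). Slc4a3 and Slc4a8, which encode an anion exchanger and a sodium-driven exchanger, rose by 1.67 and 1.53 (adjusted p = 8.87e-06 and 1.73e-05, limma). Slc26a6, Slc38a3 and Slc9a3 had differences of -0.28, 0.13 and 0.14 that did not pass. None of these genes of either list passed the adjusted threshold in CKD+Fe against CKD. Without the 3 mice that stood apart, Slc38a3 passed with 1.07 (adjusted p = 0.0409, limma), against 0.388% of all genes called higher. In each list 1 gene had an unadjusted p under 0.05 (limma), against 6.01% of all genes.

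Markers of neighbouring cells were measured beside the intercalated cell genes. Over all tested genes 54.6% rose and 13.3% fell in CKD, and 28.8% and 29.3% did so after rescaling. Of 11 principal cell markers 2 rose and 2 fell in CKD, with Aqp3 at -1.28 and the sodium channel genes Scnn1b and Scnn1a at 0.59 and 0.46 (adjusted p = 0.00139, 0.00600 and 0.0338, limma). After rescaling 0 rose and 7 fell. Of 8 markers of the distal convoluted tubule and thick ascending limb 2 rose and 2 fell, with Pvalb at -3.42, Egf at -2.49 and Cldn16 at 0.85 (adjusted p = 2.02e-05, 5.34e-05 and 0.000605, limma). After rescaling 1 rose and 2 fell, and Cldn16 had 0.29 (adjusted p = 0.125, limma). Of 10 endothelial markers 1 fell, Kdr at -0.67 (adjusted p = 0.00714, limma), and after rescaling 0 rose and 8 fell. The part of these cells in the values of the 10 genes was not tested.

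The genes with the most similar profile were sought for each of the 10 genes over all 12 mice, by the root mean square difference of log2(FPKM + 1) after each gene was centred on its mean. The mice include the 3 groups, so likeness mixes differences between groups and within them. For Car4 these were Ldhd (0.23) and Proc (0.23), with means of 655 and 128 FPKM in control mice and 111 and 23.4 FPKM in CKD mice. For Slc26a4 they were Aldh7a1 (0.19) and Abcg2 (0.22), and for Slc4a1 Lrrc66 (0.36) and Cyp2d26 (0.37), the least close of all. Atp6v0d2 was nearest to Plekhh2 (0.17) and Mitf (0.17), which averaged 2.94 FPKM in control and 8.71 FPKM in CKD mice for Mitf. Atp6v1b1 was nearest to Dst (0.12) and Zfp131 (0.12), Slc4a4 to Dpyd (0.16) and Hnf4g (0.21), and Foxi1 to Pcbp4 (0.14) and Fdxr (0.15). Atp6v0a4 was nearest to Trak2 (0.10) and Slc25a46 (0.10), Atp6v1g3 to 1700028J19Rik (0.17), and Car2 to 1700066M21Rik (0.12) and Gm10767 (0.13). None of these neighbours was itself one of the 10 genes.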

How the data were processed

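RNA of whole kidney from 12 mice was sequenced. Per the labels and methods of the study, the authors used a TruSeq stranded mRNA kit and single-end reads. The submitters' processing notes name bcl2fastq 2.19, STAR 2.5.2, Cufflinks 2.1.1 and GRCm38, and the annotation and strand setting are not given in the sources used here. The authors deposited FPKM per gene and mouse, with a status that marked 30 values in 17 genes as failed, and these were treated as missing. No read counts were used, so depth and counting error are unknown and precision rests on the spread of 4 mice per group. Each mouse's FPKM are relative to its own total.

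The 13148 genes that reached 1 FPKM in 4 or more mice were log2-transformed after adding 1 FPKM and fitted with limma 3.58.1, run in R 4.3.3 (all 12 mice in 1 fit, variance trend, two-sided p, Benjamini-Hochberg adjustment over all tested genes, threshold 0.05). Means and SDs are of FPKM. Ratios were compared by exact permutation (scipy 1.17.1). Groups came from the labels, which name no batch and share no replicate numbers, so no paired analysis was made.

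The genes named are the 10 genes, their paired paralogs, up to 3 genes of each other list with the smallest and 3 with the largest adjusted p in CKD against control, and the 2 nearest genes of each, with exceptions marked and 1 nearest gene not reported here. The 10 genes and the lists were chosen with earlier results of these data known. Gene positions are those of GENCODE M21 on GRCm38, and sequences are from RefSeq. Alternatives were other pseudocounts, filters, scalings, weights, thresholds, samples and variance models, and each mouse left out. Leaving out the 3 mice that stood apart was chosen after seeing the data.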

Additional observations from a re-analysis of the deposited data

Results flagged for a closer look

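In 6 cases a value stood apart from the other 3 mice of its group by a gap past the 95% critical value of Dixon's test. Of 51 groups of values tested, 6 had such a value, and chance gives about 1 in 20. Atp6v0a4 was at 45.3 FPKM in control mouse 042301. Atp6v1g3 was at 19.1 FPKM in CKD+Fe mouse 042702. Foxi1 was at 15.5 FPKM in CKD mouse 110310, above the other CKD mice. The log2 ratio of Atp6v0a4 to Atp6v0a1 was 1.12 in control mouse 042301 and 0.46 in CKD+Fe mouse 042702. The log2 ratio of Slc4a1 to Slc4a2 was -0.79 in control mouse 012822. All but that in control mouse 012822 came from the 3 mice in which many genes differed from the rest of their group.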

How the results depend on the processing

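In CKD against control, 147 of 180 recomputed values of single genes kept their direction and their side of the threshold, and Atp6v0d2, Slc4a1, Slc26a4 and Car4 did so under each alternative run. The count of lower genes was 7 after rescaling, 5 after quantile normalization and 4 when only the 2 groups compared were fitted or at an adjusted p under 0.5 (Atp6v1g3 was added in both), and that of higher genes 1 under rescaling and quantile normalization. Directions turned for Atp6v1b1 after rescaling (-0.069), for Slc4a4 (quantile normalization 0.085, array weights 0.23, without the 3 mice 0.028) and for Car2 (0.36, 0.10 and 0.12 in the same order). Leaving out 1 mouse gave 1 to 2 higher genes, -0.33 to 0.35 for Slc4a4, -0.20 to 0.062 for Foxi1, -0.094 to 0.059 for Car2 and -0.25 to 0.010 for Atp6v0a4.

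In CKD+Fe against CKD, 162 of 180 values did not change in this sense. The count of higher genes was 2 with array weights, without the 3 mice and at an adjusted p under 0.5. Slc4a4 turned (quantile normalization -0.046, array weights -0.10, without the 3 mice -0.066), as did Car4 (array weights 0.10, without the 3 mice 0.30). Leaving out 1 mouse gave -0.026 to 0.19 for Atp6v0a4, -0.32 to 0.30 for Slc4a4 and -0.20 to 0.14 for Car4.

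In CKD+Fe against control, 144 of 180 values did not change. The count of lower genes was 1 without a filter, and that of higher genes was 1 after rescaling, 5 with array weights, 4 without the 3 mice and 5 at an adjusted p under 0.5. Rescaling turned Atp6v1g3 (-0.32), Slc4a4 (-0.52), Car2 (-0.36) and Foxi1 (-0.16), quantile normalization turned Atp6v1g3 (-0.040) and Foxi1 (-0.17), array weights turned Slc4a1 (0.35), and leaving out the 3 mice turned Slc4a1 (0.29) and Slc4a4 (-0.038). Leaving out 1 mouse gave 1 to 2 lower and 2 to 3 higher genes, -0.17 to 0.078 for Atp6v0a4, -0.33 to 0.19 for Slc4a1 and -0.29 to 0.31 for Slc4a4. Of the recomputed differences of ratios, 225 kept their direction and moved by less than 1 SD, and 6 turned. Leaving out 1 mouse gave -0.0013 to 0.16 for Atp6v1g3 to Atp6v1g1 and -0.45 to 0.16 for Slc26a4 to Slc4a1 in CKD against control, and -0.027 to 0.39 for Atp6v0a4 to Atp6v0a1 in CKD+Fe against CKD, where Car4 to Car2 was 0.044 without the 3 mice. Causes of these shifts were not tested. Depth in reads is unknown, and FPKM cannot tell a change of a gene from a change of the total RNA around it.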
